A study of Hydra vulgaris with 36 samples.

Results

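Zic4 is a zinc finger transcription factor of the Zic family, and its transcript was targeted by RNA interference (RNAi) in the freshwater polyp Hydra vulgaris, strain Hm_105. The comparison described here is between the proximal parts of original tentacles, the stretch next to the head cut apart from the distal part, of Zic4 RNAi animals (n = 4 libraries) and of mock RNAi animals (n = 4 libraries). These 8 libraries of the 36 in the series were chosen by their labels for tissue and treatment. All animals carried the wild type genotype and went through 3 rounds of electroporation, with each small interfering RNA at 1.35 µM, and tentacles were taken 7 days after the third round. The corresponding distal parts of mock (n = 4) and Zic4 RNAi animals (n = 4), and the proximal parts after RNAi of Sp5, another zinc finger factor (n = 3), serve as reference groups. The control is labelled mock RNAi and its small interfering RNA is not described further. Tissue was pooled in lysis buffer, and the labels do not say whether libraries of a group came from separate cultures, so p-values measure the spread between these libraries, which may be technical. The RNA was amplified by SmartSeq2, a full-length cDNA method, and sequenced, and the values are read counts per gene. The series is about the part of Zic4 in making tentacles and in keeping the identity of epithelial cells.

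Hydra tentacles are covered by battery cells, flattened epithelial cells that hold nematocytes, the stinging cells. Epithelial cells reach the tentacle base from the body column, take on the tentacle fate there and move towards the tip. The proximal parts therefore hold the younger battery cells. Wnt ligands and Brachyury mark the head organizer above the tentacle ring, and the foot ends in the basal disk, an epithelium of secreting cells.

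The mock proximal libraries stood apart from the Zic4 RNAi libraries in composition, and this touches every value below. Totals ran from 2391331 to 8789109 counts in mock proximal parts and from 6909740 to 10593658 after Zic4 RNAi. The 10 most abundant genes of each library took 17.2% to 23.1% of counts in mock and 10.7% to 13.8% after Zic4 RNAi. The TMM factor, which scales a library for its composition, was 0.541 to 0.777 in mock and 1.12 to 1.205 after Zic4 RNAi. After thinning every library to the smallest total, 9593 to 10536 genes held at least 5 counts in mock and 12031 to 12311 after Zic4 RNAi. None of these ranges of share, factor and thinned gene number overlapped, so composition and treatment cannot be told apart in these 8 libraries. The Sp5 RNAi proximal libraries had factors of 0.753, 0.988 and 1.054, all below those of the Zic4 RNAi libraries.

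**Figure D1:**
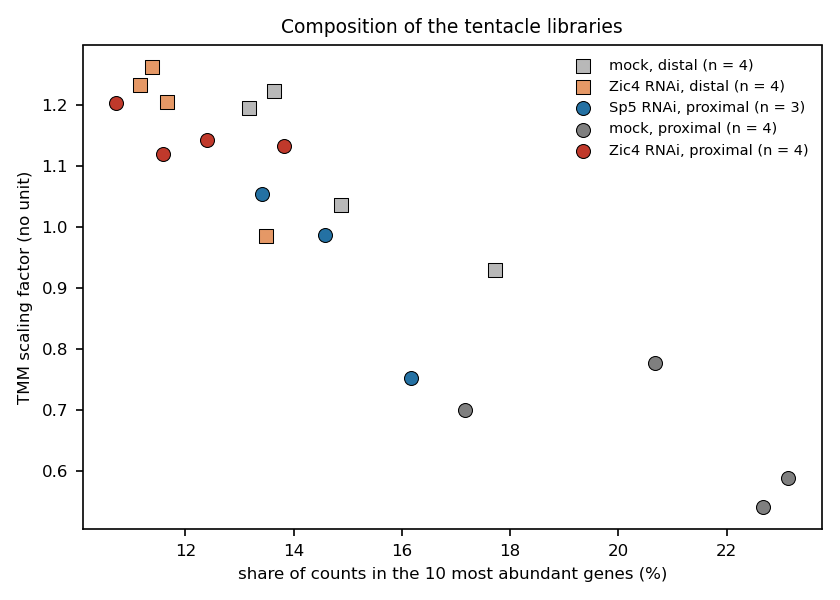
Share of counts in the 10 most abundant genes (percent, x axis) against the TMM scaling factor (y axis) for the proximal libraries of mock, Zic4 RNAi and Sp5 RNAi and the distal libraries of mock and Zic4 RNAi, 1 point per library. The 4 mock proximal libraries lie at factors from 0.541 to 0.777, and the 4 Zic4 RNAi proximal libraries at 1.12 to 1.205.

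With edgeR's quasi-likelihood test, TMM scaling and group as the only factor, 4766 of 14332 genes passed an adjusted p of 0.05, which is 33.3% of those tested. Of these, 2534 (17.7%) were higher and 2232 (15.6%) lower after Zic4 RNAi. In 31.9% of genes tested the 4 libraries of one group did not overlap the 4 of the other. When the log2 share of the 10 most abundant genes was added to the fit as a covariate, 11 genes passed, 6 higher and 5 lower, and 1615 had an unadjusted p under 0.05. With the number of thinned detected genes as the covariate, chosen after seeing the data, 4 genes passed. The log2 fold change of 554 and 1494 of the 4766 genes changed sign with the first and the second covariate. Rises and falls named below are those of the fit without a covariate. None of the 43 named genes called without a covariate passed with either one.

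With TMM scaling, calls among the most abundant genes were falls and calls among rarer genes were mostly rises. Among 185 genes that averaged 1000 CPM or more (counts scaled to library size with the TMM factor) in the 8 libraries, 129 fell and 0 rose. Of 5609 genes between 1 and 10 CPM, 1132 rose and 412 fell. On plain library totals, 49 of the 185 abundant genes fell and 14 rose. This second scaling, added after the data were seen, moved the median log2 fold change of all genes from 0.0047 to 0.81, and 6201 of its 6673 calls were rises. Falls on the TMM scale are therefore also described on plain totals, gene by gene or as a count.

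**Figure D2:**
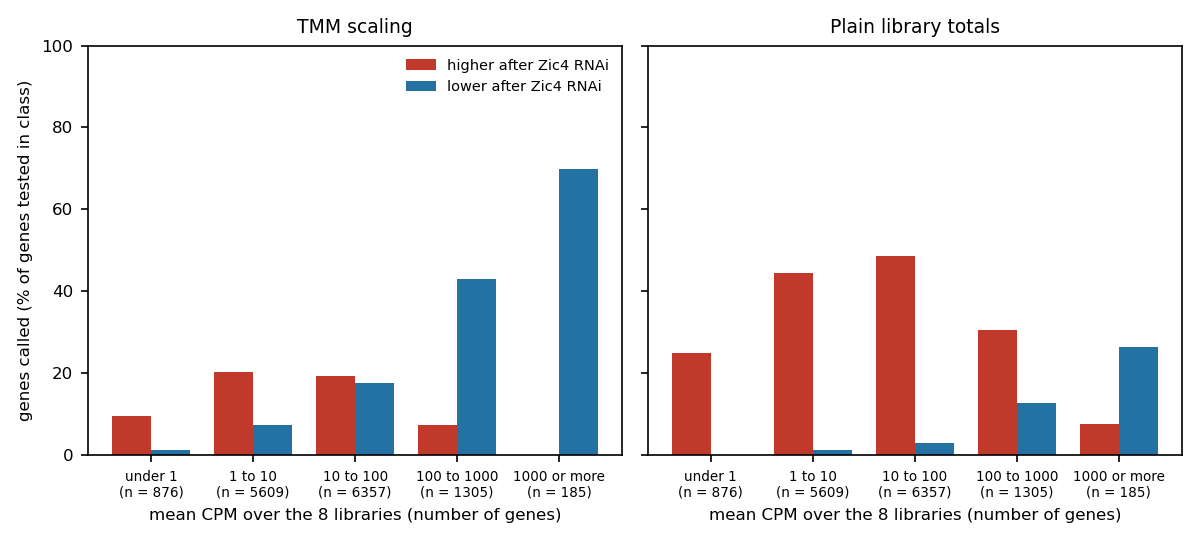
Percent of the genes tested that were called higher (red) or lower (blue) after Zic4 RNAi, by class of mean CPM over the 8 proximal libraries, with TMM scaling (left) and plain library totals (right). With TMM scaling, 129 of 185 genes in the top class were lower and 0 higher, and with plain totals 49 were lower and 14 higher.

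Among the tentacle markers, Annexin-12, a calcium-dependent phospholipid-binding protein known from battery cells, fell and the others did not pass. Annexin-12 stood at 7588, 17322, 15922 and 7119 CPM in mock replicates 1 to 4 and at 2878, 2932, 2921 and 3761 CPM after Zic4 RNAi. Every Zic4 RNAi library lay below every mock library, and mock replicates 2 and 3 were the highest. Its log2 fold change was -1.94 (± 0.40 SE, edgeR adjusted p = 0.00079). In bulk tissue, fewer battery cells and less RNA per cell cannot be told apart. With the 2 covariates its log2 fold change was 0.052 and 1.01. Its mean level was 3700.2 CPM in mock distal parts and 8032 CPM in Sp5 RNAi proximal parts.

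The homeobox gene Alx, known from the tentacle base, stood at 95.6, 57.002, 66.8 and 74.7 CPM in mock and at 65.6, 31.5, 30.0 and 65.7 CPM after Zic4 RNAi. The groups overlapped, with Zic4 RNAi replicates 2 and 3 low and 1 and 4 at mock levels (log2 fold change -0.61, edgeR adjusted p = 0.116). The tentacle Wnt ligands hywnt5a (110.4 ± 31.5 against 88.1 ± 15.5 CPM, SD, n = 4 each) and hywnt8 (51.3 ± 16.3 against 42.5 ± 20.4 CPM) overlapped as well. The 4 markers had a median log2 fold change of -0.47, beside 0.0047 over all genes tested. On plain totals Alx, hywnt5a and hywnt8 had positive log2 fold changes, none of them called.

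In the Wnt pathway and head organizer group, 11 of 17 named genes were tested. Bra2 and hywnt11 rose while Wnt3a fell, beside 17.7% of all genes called higher and 15.6% called lower. Bra2, a Brachyury T-box factor, stood at 0.409, 2.49, 0 and 1.95 CPM in mock and at 5.12, 10.97, 7.48 and 4.27 CPM after Zic4 RNAi. All 4 Zic4 RNAi libraries lay above all 4 mock libraries (log2 fold change 2.26 ± 0.55 SE, adjusted p = 0.0029 by edgeR). Its relative Bra1 had at most 3 counts in each mock library and 2.52 ± 1.10 CPM after Zic4 RNAi, without overlap, and did not pass (edgeR adjusted p = 0.0684). The ligand hywnt11 rose from 0.469 ± 0.590 to 2.64 ± 0.427 CPM (edgeR adjusted p = 0.0348). That call was lost when any of 5 libraries was left out singly, at adjusted p from 0.0565 to 0.112. It also rose in distal parts, from a mean of 0.149 to 4.99 CPM (adjusted p = 0.00224).

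Wnt3a, a Wnt ligand, stood at 7.35, 25.7, 24.2 and 14.2 CPM in mock and at 2.64, 0.893, 4.69 and 2.33 CPM after Zic4 RNAi. The groups did not overlap, and the log2 fold change was -2.72 (SE 0.55, edgeR adjusted p = 0.000648). The beta-catenin gene ctnnb1, the intracellular transducer of the pathway, stood at 174, 188, 143 and 344 CPM in mock and at 308, 402, 345 and 312 CPM after Zic4 RNAi. Mock replicate 4 lay within the Zic4 RNAi range, and the gene did not pass (log2 fold change 0.68, edgeR adjusted p = 0.0902). The ligand hywnt7 ran from 4.97 to 41.0 CPM in mock and from 28.9 to 55.6 CPM after Zic4 RNAi, with mock replicate 4 alone in the Zic4 RNAi range (edgeR adjusted p = 0.289). The receptor gene hyfzd5/8, the kinase gene GSK3, stbm and hywnt16 did not pass. The median of the group was 0.68 on the log2 scale, or 0.24 with Bra1 taken at its bound against 3 counts. The organizer ligand hywnt1 had 0 counts in all 8 libraries, and the forkhead gene budhead had at most 9.

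None of the 10 nematocyte lineage genes tested passed (edgeR, 0 called, median log2 fold change -0.79), and 7 of them were higher in Zic4 RNAi replicates 2 and 4 than in 1 and 3, an order that 13.3% of all genes tested showed. The 7 are nb001, nb-042, nb012, nb035, nb039b, nemgalA and CnASH, and this order was noticed in the values. The nematoblast gene nb001 stood at 31.5, 213, 39.8 and 16.9 CPM in mock and at 0.826, 276, 1.45 and 269 CPM after Zic4 RNAi. Zic4 RNAi replicates 2 and 4 were high, and 1 and 3 lay below every mock library. The nematoblast gene nb-042 was also higher in replicates 2 and 4, at 7.14 and 20.7 CPM, than in 1 and 3, at 0.991 and 1.79 CPM. The capsule protein gene nowa stood at 17.9 ± 11.6 CPM in mock and 10.1 ± 3.14 CPM after Zic4 RNAi (edgeR adjusted p = 0.186). The gene zic1, a Zic family member known from this lineage, stood at 20.5 ± 6.35 and 9.34 ± 3.10 CPM and did not pass (edgeR adjusted p = 0.148). No row was matched by name to Zic4 itself or to Sp5, so the depth of the knockdown is not analysed here.

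Markers of other cell types were few by name. CnNK-2, a homeobox gene known from the basal disk, had 0 counts in 7 of the 8 libraries and 0.163 CPM in mock replicate 4. The neuronal channel genes HyNaC8, HyNaC9 and HyNaC10 had at most 5, 16 and 11 counts and were not tested. The stem cell gene piwil1 stood at 347 ± 144 CPM in mock and 313 ± 13.6 CPM after Zic4 RNAi (edgeR adjusted p = 0.715). No gland cell or muscle gene of the lists matched a name.

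Of the 22 growth factor, receptor and kinase genes, all tested, 7 rose and 5 fell, with a median log2 fold change of 0.27, beside 17.7% of all genes called higher and 15.6% called lower. Falls were largest in 2 ligand genes. VEGF, a secreted growth factor, stood at 77.2, 125, 179 and 51.4 CPM in mock and at 17.1, 11.9, 7.92 and 10.7 CPM after Zic4 RNAi. The lowest mock library lay above the highest Zic4 RNAi library (log2 fold change -3.17 ± 0.38 SE, adjusted p = 8.69e-06 by edgeR). The insulin-like peptide gene ilp1 stood at 83.4, 56.6, 62.5 and 40.02 CPM in mock and at 12.6, 6.12, 18.4 and 16.7 CPM after Zic4 RNAi. It too showed no overlap (log2 fold change -2.16 ± 0.45 SE, adjusted p = 0.000768 by edgeR). VEGF and ilp1 also passed in distal parts, at log2 fold changes of -1.44 (adjusted p = 0.0197) and -1.64 (adjusted p = 0.0306). The other insulin-like gene ilp2 did not pass (32.0 ± 6.27 against 20.5 ± 7.63 CPM, edgeR adjusted p = 0.127).

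Among the other genes of this group, 7 rose and 3 fell, and 10 did not pass. HTK98, a Hydra tyrosine kinase, stood at 2.04, 3.56, 2.13 and 3.58 CPM in mock and at 13.2, 12.4, 14.5 and 14.9 CPM after Zic4 RNAi. Both groups were tight and far apart (log2 fold change 2.20 ± 0.41 SE, adjusted p = 0.000288 by edgeR). The tyrosine kinases HTK90 and HTK16, the fibroblast growth factor receptor FGFR, the phospholipase C gene plcbh2, the ribosomal S6 kinase rps6ka3 and the striatin STRN3 rose too, by 0.60 to 2.06 on the log2 scale. FGFR stood at 5.59 ± 4.18 CPM in mock and 26.0 ± 14.5 CPM after Zic4 RNAi. The related FGFR-1 did not pass (31.4 ± 11.99 against 47.3 ± 2.17 CPM, edgeR adjusted p = 0.0616). The inhibitory G protein subunits gnai3 and gnai4 and the kinase gene P57-STK fell, with log2 fold changes of -0.91, -0.71 and -0.91. On plain totals none of these 3 falls passed, and the log2 fold changes were -0.036 for gnai3, 0.080 for gnai4 and -0.074 for P57-STK. The rise of STRN3 held in 7 of 19 settings without a covariate. Without mock replicates 2 and 3, the rises of HTK90, HTK16, FGFR, rps6ka3 and STRN3 did not pass, while those of HTK98 and plcbh2 did.

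**Figure D3:**
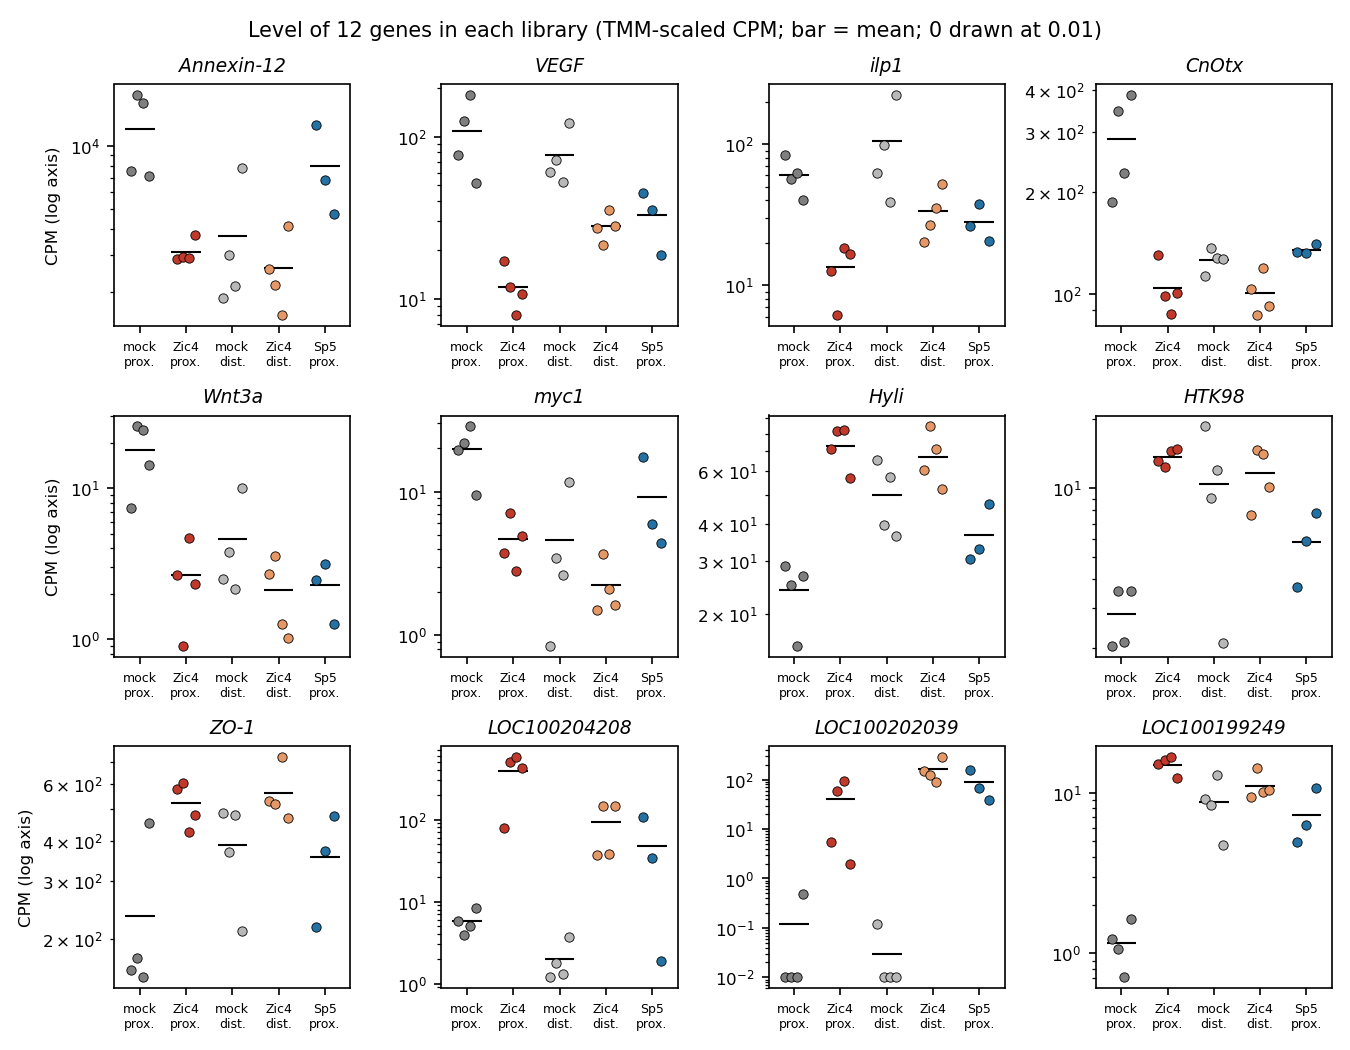
Level of 12 genes in every library of 5 groups (TMM-scaled CPM on a log axis), with proximal and distal parts of mock and Zic4 RNAi (n = 4 each) and proximal parts of Sp5 RNAi (n = 3); each point is 1 library, bars are means, and values of 0 are drawn at 0.01. VEGF lies between 51.4 and 179 CPM in mock proximal parts and between 7.92 and 17.1 CPM after Zic4 RNAi.

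All 5 cell junction genes that were tested passed, with 1 rise and 4 falls, beside 17.7% of all genes called higher and 15.6% called lower. ZO-1, a scaffold of epithelial junctions, stood at 160.2, 175, 152 and 454 CPM in mock and at 577, 604, 426 and 479.9 CPM after Zic4 RNAi. Mock replicate 4 alone reached the Zic4 RNAi range (log2 fold change 1.14 ± 0.32 SE, adjusted p = 0.00828 by edgeR), and the call was lost without mock replicates 2 and 3 (adjusted p = 0.2). The claudin-like genes cldnl12, cldnl3 and CLDNL1 and the gap junction gene INX1 fell, with log2 fold changes of -1.27, -0.81, -0.61 and -0.57. On plain totals none of these 4 falls passed, and CLDNL1 and INX1 had log2 fold changes of 0.20 and 0.25. Of the matrix genes, collagen and col2 fell, the former from 229, 3051, 1481 and 1119.7 CPM in mock to 327, 593, 425 and 362 CPM. Mock replicate 1 lay below all Zic4 RNAi libraries, and neither collagen gene passed on plain totals or without mock replicates 2 and 3. The metalloproteinase genes mmp and HMP1 did not pass.

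Of 9 cell death and immunity genes tested, nfkb1 rose and bak, cglr and bcl-2 fell, which is 4 called genes beside 33.3% of all genes. The gene bak, of a family that promotes apoptosis in mammals, stood at 120.1, 400.4, 334 and 179 CPM in mock and at 66.0, 43.1, 64.3 and 88.5 CPM after Zic4 RNAi. The groups did not overlap (log2 fold change -1.98 ± 0.33 SE, adjusted p = 0.000107 by edgeR). Its antagonist family member bcl-2 fell by 0.80 on the log2 scale (38.5 ± 11.4 against 22.2 ± 2.19 CPM, edgeR adjusted p = 0.0129), with mock replicate 3 in the Zic4 RNAi range. On plain totals its log2 fold change was -0.020 and it did not pass, nor did cglr (log2 fold change -0.36, edgeR adjusted p = 0.297). The immune factor gene nfkb1 rose from 3.08 ± 1.32 to 8.84 ± 3.25 CPM (edgeR adjusted p = 0.0125). The caspase gene casp8 did not pass (27.0 ± 11.03 against 24.1 ± 2.20 CPM).

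Among 8 other transcription and chromatin factors tested, CREB rose and CnOtx, HMGB3 and CUX1 fell. Of all genes tested, 17.7% were called higher and 15.6% lower. The Otx homeobox gene CnOtx stood at 186, 347, 228 and 384 CPM in mock and at 130.3, 99.0, 87.3 and 101 CPM after Zic4 RNAi, without overlap (log2 fold change -1.46 ± 0.24 SE, adjusted p = 0.000115 by edgeR). CREB, a factor that responds to cyclic AMP, rose from 2.96 ± 1.03 to 15.3 ± 8.76 CPM (log2 fold change 2.28, edgeR adjusted p = 0.000848). The growth regulator myc1 fell from 19.8 ± 7.86 to 4.64 ± 1.88 CPM (edgeR adjusted p = 0.0112), while myc2 stood at 14.9 ± 5.93 and 14.7 ± 3.89 CPM. On plain totals the log2 fold change of CUX1 was 0.16, that of HMGB3 -0.47 and that of myc1 -1.23. None of them passed there (edgeR adjusted p = 0.636, 0.299 and 0.0823).

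Translation, energy and housekeeping genes moved unequally. Of 11 tested, 3 rose and 4 fell, beside 17.7% of all genes called higher and 15.6% called lower. EF-1-alpha, a translation factor, stood at 13645 ± 3529 CPM in mock and 11221 ± 889 CPM after Zic4 RNAi and did not pass (edgeR adjusted p = 0.387). HvRACK1, a scaffold on the ribosome, fell from 4705 ± 1981 to 1569 ± 316 CPM (edgeR adjusted p = 0.0039), and TCTP fell from 4556 ± 359 to 2612 ± 504 CPM (edgeR adjusted p = 0.0211). Neither passed on plain totals, where the log2 fold change of TCTP was 0.017. The respiratory chain gene uqcr11 and az fell as well, and the nuclear lamina gene lamin, the DNA repair gene XPF and ecd rose. Of 19 settings without a covariate, the call of lamin held in 9, that of XPF in 18 and that of ecd in 7. The genes cad, Hyli and hychat-2, for which no role is given here, rose, and hyp1 fell. Hyli rose from 24.1 ± 5.89 to 72.9 ± 11.7 CPM without overlap (log2 fold change 1.58, edgeR adjusted p = 7.49e-05). The gene hychat-2 had 0 counts in all 4 mock libraries and 0.905 to 3.06 CPM after Zic4 RNAi (edgeR adjusted p = 0.00156). Its mean, 2.02 CPM, is below the 2.13 CPM that 3 counts stand for in the shallowest mock library, so no fold is given.

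In all, 43 of the 104 named genes tested were called, 18 higher and 25 lower, beside 33.3% of all genes. On plain totals all 18 rises were called as well, and of the 25 falls 7 were, those of Annexin-12, Wnt3a, VEGF, ilp1, bak, CnOtx and az. Over all genes, 2534 of 2534 rises and 472 of 2232 falls were also called on plain totals. That scaling moved the median log2 fold change to 0.81, which by itself favours rises and works against falls. Across up to 19 settings without a covariate, plain totals among them, 13 of the 43 calls held in every one. The 6 rises among them were Bra2, HTK98, plcbh2, CREB, Hyli and hychat-2, and the 7 falls were the same as on plain totals. With the share of the 10 most abundant genes as a covariate, 0 of the 43 passed.

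**Figure D4:**
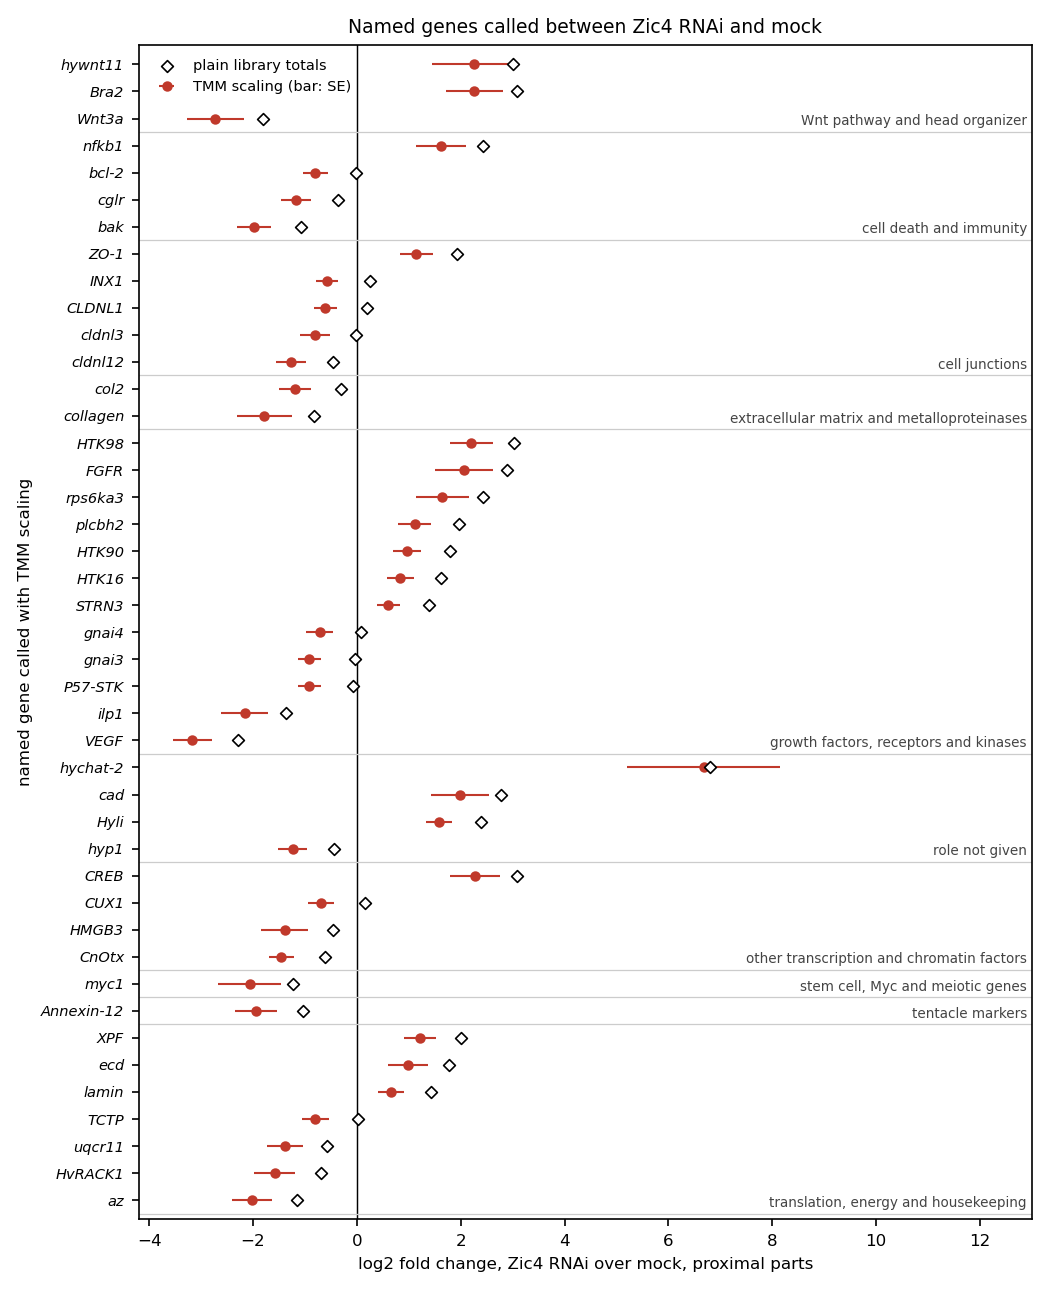
Log2 fold change of Zic4 RNAi over mock in proximal parts for the 43 named genes called, grouped by role, with TMM scaling (red points, bars are SE) and with plain library totals (open diamonds). VEGF lies lowest at -3.17, the diamonds of the 5 genes CLDNL1, INX1, gnai4, CUX1 and TCTP lie on the other side of 0, and the value of hychat-2 depends on the prior count because mock had 0 counts.

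The largest rises were in genes at low levels or at 0 in mock proximal parts. LOC100204208 stood at 5.72, 3.92, 4.97 and 8.30 CPM in mock and at 78.8, 497, 570.0 and 422 CPM after Zic4 RNAi. Zic4 RNAi replicate 1 was lower than the others and still far above mock (log2 fold change 6.04 ± 0.95 SE, adjusted p = 0.000109 by edgeR). It rose in distal parts too, from a mean of 2.002 to 92.4 CPM (adjusted p = 0.00165). LOC100203541 had 0 counts in all mock proximal libraries and 10.8, 2.68, 23.7 and 9.44 CPM after Zic4 RNAi. Its mean was at least 5.47-fold higher, taking 3 counts in the shallowest mock library as the floor.

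LOC100202039 stood at 0, 0, 0 and 0.488 CPM in mock and at 5.45, 60.3, 96.0 and 1.94 CPM after Zic4 RNAi. Zic4 RNAi replicates 2 and 3 were high and 1 and 4 low. LOC105844854, LOC100212386 and the gene with identifier 105847572 showed the same order, with replicates 2 and 3 above 1 and 4. LOC100202039 reached 162 CPM in Zic4 RNAi distal parts, 88.4 CPM in Sp5 RNAi proximal parts and 467 CPM in the ectopic tentacles of Sp5 RNAi animals. In all, 272 genes called higher had at most 3 counts in every mock proximal library. By the mirrored rule, 6 genes called lower had at most 3 counts in every Zic4 RNAi library. The rule is uneven, since 3 counts stand for up to 2.13 CPM in mock and up to 0.388 CPM after Zic4 RNAi. The median level of the 272 genes was 1.68 to 3.32 CPM in the Zic4 RNAi libraries, near the mock floor. The summed level of the 272 genes after Zic4 RNAi was 639, 1418, 1402 and 566 CPM in replicates 1 to 4, with 2 and 3 high. LOC100202039 and the genes of the same order named above are among the 272, so the sum does not repeat that order independently. The order was noticed in the values. The sum was 57.7 to 93.1 CPM in mock proximal parts, 186 to 692 CPM in mock distal parts and 1759 to 2580 CPM in Zic4 RNAi distal parts. Mock proximal libraries were low by the way these genes were chosen, so that sum is a description.

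The largest fall was that of LOC105845617, from 12.3, 136, 229 and 28.0 CPM in mock to 2.73, 1.02, 0.223 and 0.129 CPM (log2 fold change -6.48 ± 1.28 SE, adjusted p = 0.000944 by edgeR). Mock replicates 2 and 3 were the highest, and no libraries overlapped. LOC100200105 fell from 169, 637, 164 and 421 CPM to 13.4, 4.98, 6.58 and 26.5 CPM (log2 fold change -4.76 ± 0.60 SE, adjusted p = 1.52e-05 by edgeR). LOC100197540 fell from 833 ± 479 to 67.1 ± 29.5 CPM (log2 fold change -3.63, edgeR adjusted p = 8.69e-06). The gene with identifier 105848636, which has no entry in the gene table, fell from 11.7 ± 2.42 to 0.269 ± 0.263 CPM (edgeR adjusted p = 1.84e-05) and also fell in distal parts (adjusted p = 0.000856).

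The most abundant genes were led by LOC100202036 and LOC100206987, which together with LOC100204518 and LOC100202765 fell. LOC100202036 stood at 61684, 129404, 121095 and 56782 CPM in mock and at 30612, 40380.5, 23299.7 and 26067 CPM after Zic4 RNAi (log2 fold change -1.62, edgeR adjusted p = 0.000155). LOC100204518 fell from 28042 ± 8316 to 4437 ± 907 CPM (log2 fold change -2.66, edgeR adjusted p = 8.14e-05). On plain totals LOC100202765 did not pass (log2 fold change -0.47, edgeR adjusted p = 0.179), while LOC100202036, LOC100206987 and LOC100204518 did. Of the 19 genes that were among the 10 most abundant of any mock proximal library, 18 fell and 14 of them also did on plain totals. Choosing genes by a high mock level favours falls. Of all 185 genes that averaged 1000 CPM or more, 129 fell, and 49 did on plain totals. The rise with the highest level was LOC100215556, from 662 ± 151 to 1005 ± 149 CPM (edgeR adjusted p = 0.0485), a call lost in 16 of 21 other settings. LOC100200796 rose from 229 ± 78.6 to 988 ± 221 CPM (log2 fold change 2.10, edgeR adjusted p = 7.69e-05) and also rose in distal parts (adjusted p = 0.00354).

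The 11 genes that passed with the share of the 10 most abundant genes as a covariate did not overlap between the groups in any case. The same held for 3760 of the 4766 genes called without a covariate and for 31.9% of all genes tested. The 11 genes were chosen by a test on the same libraries, which favours a lack of overlap. LOC100204823 stood at 69.1, 24.9, 58.3 and 44.1 CPM in mock and at 633, 692, 612 and 612 CPM after Zic4 RNAi. Each Zic4 RNAi library lay far above each mock library (log2 fold change 3.71 ± 0.55 SE, edgeR adjusted p = 4.95e-05 without the covariate and 0.0358 with it). LOC100199249 stood at 1.23, 1.07, 0.710 and 1.63 CPM in mock and at 15.0, 15.9, 16.5 and 12.3 CPM after Zic4 RNAi (adjusted p = 1.95e-06 without and 0.0425 with the covariate). LOC101238429, LOC100210963 and LOC100208627 were further rises, and LOC100215665, LOC100204445 and LOC100208689 were falls. The other 3, 1 rise and 2 falls, have no symbol in the gene table. With the thinned gene number as the covariate, LOC100199249 did not pass (edgeR adjusted p = 0.999).

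The effect in proximal parts was compared with that in distal parts, which have their own mock libraries. Zic4 RNAi against mock called 522 genes (3.64%) in distal parts, and 356 genes were called in both, 350 of them in the same direction. The difference between the effects passed for 545 genes (3.8%), 371 with a higher effect in proximal parts and 174 (1.21%) with a lower one, and 511 of them were also called in proximal parts, 369 higher and 142 lower, from tests that share the same 8 libraries. In 364 of those 369 genes the mock proximal group had the lowest mean of the 4 groups, and in 138 of those 142 it had the highest. The choice of these genes favours that order. The mock proximal mean was lowest in 89.3% of all genes called higher and highest in 81.1% of those called lower. Of all 14332 genes tested, it was lowest in 5128 and highest in 4821, together 69.4%. With either covariate 0 differences passed, at a smallest edgeR adjusted p of 0.0566 with the first, and 1320 genes had an unadjusted p under 0.05. Without a covariate the count was 1109 with DESeq2, 260 with voom, 63 on the compared groups alone and 46 to 1470 without single libraries.

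LOC100199249 showed the smallest p of the difference. Its mean was 1.16 CPM in mock proximal parts, 14.9 CPM in Zic4 RNAi proximal parts, 8.73 CPM in mock distal parts and 11.03 CPM in Zic4 RNAi distal parts (difference of log2 fold changes 3.24, edgeR adjusted p = 0.00216). LOC101241713 stood at 4.04, 28.5, 21.0 and 21.6 CPM in the same order (difference 2.78, edgeR adjusted p = 0.00401). The fall of identifier 100192273 ran from 1533 to 269.5 CPM in proximal parts, beside 162 and 249 CPM in distal parts (difference -3.13, edgeR adjusted p = 0.00401). Among named genes, HTK98, bak, P57-STK and HvRACK1 passed this test, as did 3.8% of all genes tested. HTK98 stood at 2.83 and 13.7 CPM in proximal parts and at 10.4 and 11.7 CPM in distal parts (difference 2.11, edgeR adjusted p = 0.0312). The difference for VEGF was -1.73 (edgeR adjusted p = 0.0505), and for Annexin-12 it was -1.44 (edgeR adjusted p = 0.139).

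**Figure D5:**
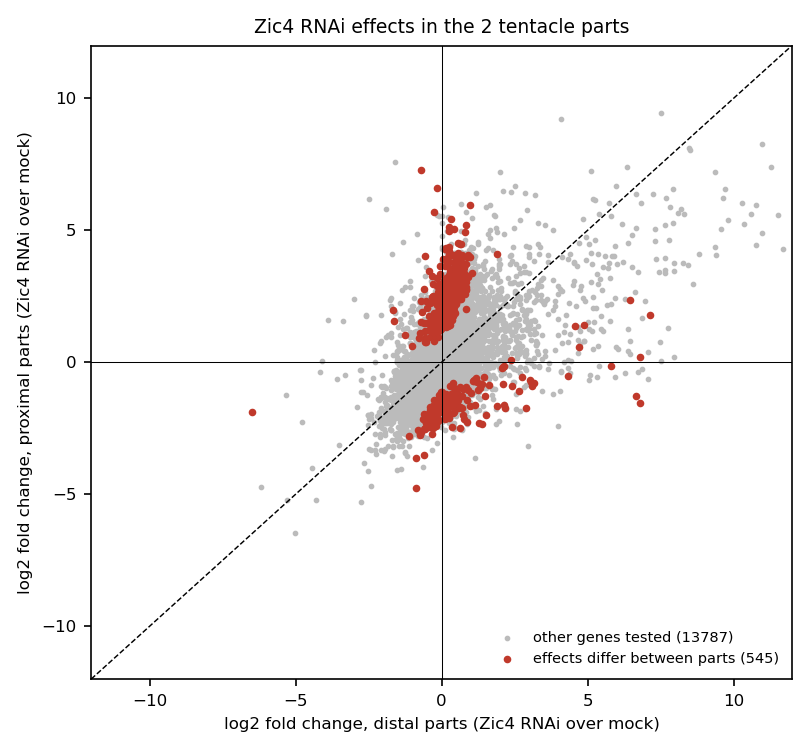
Log2 fold change of Zic4 RNAi over mock in distal parts (x axis) and in proximal parts (y axis) for the 14332 genes tested, with the 545 genes whose effects differed between the parts in red and the line of equal effect dashed. Of the red points, 371 lie above the dashed line and 174 below it.

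Proximal and distal parts differed from each other by 825 genes (5.76%) after Zic4 RNAi, 293 higher and 532 lower in proximal parts. In mock animals 4221 genes (29.5%) differed between the parts. Of the genes called in both, 434 in number, 429 had the same direction. The mock count rests on the mock proximal libraries described above, and the numbers of calls were not tested against each other.

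Zic4 RNAi was also compared directly with Sp5 RNAi in proximal parts, a contrast of 7 libraries within the fit of all 25, so that the mock libraries enter its scaling and its estimate of spread. In that comparison 526 genes (3.67%) passed, 164 higher and 362 lower after Zic4 RNAi. The Zic4 RNAi libraries are shared with the comparison against mock. On the 7 libraries alone 1189 genes passed, 569 higher and 620 lower. LOC100215832 stood at 141, 287, 359 and 367 CPM after Zic4 RNAi, 26.9 ± 10.99 CPM in mock and a mean of 25.6 CPM after Sp5 RNAi (log2 difference 3.49 from Sp5 RNAi, edgeR adjusted p = 0.000101). LOC101235368 stood at 15.4 ± 6.11 CPM after Zic4 RNAi and a mean of 118 CPM after Sp5 RNAi (log2 difference -2.94, edgeR adjusted p = 6.05e-05). The Wnt receptor gene hyfzd5/8 stood at 96.8 ± 22.7 CPM after Zic4 RNAi and a mean of 307 CPM after Sp5 RNAi (log2 difference -1.67, edgeR adjusted p = 0.000138). VEGF was lower after Zic4 RNAi, at 11.9 CPM beside 32.9 CPM (log2 difference -1.46, edgeR adjusted p = 0.0338), and Hyli was higher (log2 difference 0.99, edgeR adjusted p = 0.0409). Annexin-12 did not pass (log2 difference -1.36, edgeR adjusted p = 0.0634). With the first covariate 71 genes passed, and without single libraries 129 to 830.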

How the data were processed

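The authors deposited whole-number read counts per gene for each library, with no normalization. Per the submitters' processing notes, bcl2fastq and STAR 2.5.0 were used. The counter, genome build and annotation are not given in the sources used here. All 22608 gene rows were used, and 0 columns of samples were left unmapped. Gene names came from the symbols and synonyms in RefSeq's table for the HydraT2T_AEP assembly, which served for naming alone and matched 9547 identifiers (42.2%).

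Groups followed the labels. Counts of 25 libraries in 7 groups were fitted together with edgeR 4.0.16 in R 4.3.3, using filterByExpr, TMM scaling, robust quasi-likelihood F tests and Benjamini-Hochberg adjustment over 14332 genes. The threshold was an adjusted p of 0.05. The standard error was taken as the log2 fold change divided by the square root of F. Levels are TMM-scaled CPM. A count of 0 was given a floor of 3 counts per library, 2.13 CPM in the shallowest mock proximal library, and floors cover counting error only, since no molecular identifiers are mentioned.

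Genes named are the tested members of the tentacle, basal disk, Wnt, organizer and nematocyte lists, up to 4 called members of each other list, the 8 largest rises and falls at 10 CPM or more, the 10 largest each way with a gene name, the 5 most abundant each way, all without overlap, and the 4 lowest p of the comparisons with distal parts and with Sp5 RNAi. The role groups of all 120 genes with a name in the gene table, and the genes that passed with a covariate, were added after values were seen. The members and lists were chosen with earlier results of these data known. Lists were read from names, and most pathway genes have only a locus symbol. Alternatives used DESeq2 1.42.0 and limma 3.58.1, other scalings and filters, covariates, a replicate block and leaving out libraries. On counts simulated for 14105 genes in the proximal comparison, 13% of 100 changes of 2-fold and 84% of 100 of 4-fold were recovered. There were 3 false calls. Whether these values hold with the difference in composition between mock and Zic4 RNAi libraries was not tested. No sequence is printed.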

Additional observations from a re-analysis of the deposited data

Results flagged for a closer look

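Among 182 groups of 4 values, 20 had a highest or lowest library set far apart from the other 3 by Dixon's 95% limit. That limit is made for normally distributed values, while CPM can be skewed, most of all near 0. Most of the genes were also chosen on these same libraries. The number is therefore a description and cannot be set against chance. In mock proximal libraries the gap, as a share of the range, was 1.0 for CnNK-2 and for LOC100202039 in replicate 4. Their other 3 libraries were at 0, which gives 1.0 whatever the remaining value. It was 0.925 for ZO-1 and 0.884 for rps6ka3 in replicate 4, both high there. It was 0.883 for nb001 and 0.92 for nb039b in replicate 2, 0.903 for HTK90 and 0.856 for CREB in replicate 3, and 0.853 for CUX1 and 0.866 for XPF in replicate 1. After Zic4 RNAi it was 0.909 for hywnt8, 0.849 for LOC105844854, and 0.865 and 0.866 for a pair of genes with no entry in the gene table, all in replicate 3. It was 0.924 for LOC100201395, 0.878 for LOC100215556 and 0.878 for identifier 101235486 in replicate 2, and 0.868 for nb035 and 0.939 for Annexin-12 in replicate 4. The library total of Zic4 RNAi replicate 1 gave 0.854.

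Of 90 genes whose effects were compared between the parts, 16 differed by the test of the difference (edgeR), beside 3.8% of all genes tested. Most of the 90 were chosen by calls on these same libraries, and some by the lowest p of this very difference. That choice favours a difference, so the count of 16 is a description. The proximal effect was more negative than the distal one on the log2 scale for LOC100200105 (-3.89), identifier 100192273 (-3.13), LOC100197540 (-2.75), HvRACK1 (-2.001), LOC100202036 (-1.95), LOC101235368 (-1.77), LOC100206987 (-1.67), bak (-1.65) and P57-STK (-1.22), and for another gene with no entry in the table (-1.75). It was more positive for identifier 101235486 (5.12), LOC100203999 (3.34), LOC100199249 (3.24), LOC100215832 (2.84), LOC101241713 (2.78) and HTK98 (2.11). These differences share the mock proximal libraries, which stood apart from the Zic4 RNAi libraries in composition, and with either composition covariate 0 differences passed.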

How the results depend on the processing

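The count of 4766 calls stayed within 1.5 times under RLE and upper-quartile scaling, DESeq2, voom, other filters, the compared groups alone, thinning and plain totals, and at 3620 to 5622 without single libraries. It fell to 11 and 4 with the top-10 and the detected-gene covariate, and to 2212 without mock replicates 2 and 3, where 19 named genes passed. The similar count on plain totals hides different calls. There 6201 of 6673 calls were rises, 3006 of the 4766 calls were shared, and 263 of the 4766 genes changed sign. With either covariate 0 named genes, 0 list members and 0 differences between the parts passed, and 71 and 105 genes differed from Sp5 RNAi. The 545 differences between the parts became 1109 with DESeq2, 260 with voom, 63 on the compared groups alone, 2060 on plain totals and 46 to 1470 without single libraries. The lowest was without mock distal replicate 1, followed by 61 without Zic4 distal replicate 4 and 79 without mock proximal replicate 2. The highest were 1470 without mock distal replicate 4 and 1401 without replicate 4 of mock proximal parts. The 526 genes against Sp5 RNAi became 1121 with DESeq2, 1189 on the compared groups alone and 129 to 830 without single libraries, with 129 and 138 without Sp5 replicates 1 and 2. Members called in the lists rose from 6 to 10 on plain totals. The causes were not tested.

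Same-numbered libraries mostly did not deviate together. The correlations ran from -0.112 to 0.0689 between mock and Zic4 RNAi proximal parts and from -0.558 to 0.00712 between mock proximal and distal parts. They ran from -0.0699 to 0.225 between Zic4 RNAi proximal and distal parts and from -0.130 to 0.306 between mock and Zic4 RNAi distal parts. Between Zic4 RNAi and Sp5 RNAi proximal parts the range was -0.110 to -0.0217. The values of 0.225 and 0.306 were both those of replicate 4. With the replicate number as a block, fitted on the compared groups alone, 3431 genes were called, with 17 differences between parts, 342 against Sp5 RNAi and a log2 fold change of -1.47 for nb001.

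These log2 fold changes turned direction. With voom, nb035 was -1.24 and nb001 -1.49. With the top-10 covariate, Bra1 was -1.10, nb035 -3.04, hywnt8 0.27, Annexin-12 0.052, ctnnb1 -0.25, hywnt7 -2.10, myc1 0.023, az 0.18, cad -0.19, cldnl3 0.11, CLDNL1 0.20 and HMGB3 0.37. With the detected-gene covariate, Bra1 was -4.86, nb035 -0.79, nowa 0.046, hywnt8 1.18, Annexin-12 1.01, ctnnb1 -0.40, hywnt7 -2.10, FGFR -0.23, HvRACK1 0.94, myc1 0.21, bak 0.043, az 0.49, HTK16 -0.16, a gene with no table entry 0.67, nfkb1 -0.49, ZO-1 -0.33, cldnl3 0.14, CLDNL1 0.10, INX1 0.027, gnai3 0.18, rps6ka3 -1.11, STRN3 -0.35, HMGB3 2.03 and TCTP 0.16. On plain totals, nb012 was 0.058, nowa 0.055, Alx 0.17, hywnt8 0.62, hywnt5a 0.50, hywnt16 0.17, CLDNL1 0.20, INX1 0.25, gnai4 0.080, CUX1 0.16 and TCTP 0.017. Without mock replicates 2 and 3, hywnt8 was 0.082. Without single libraries, nb035 ran from -2.10 to 0.51 and CnNK-2 from -2.57 to 0. The shallowest mock library limits what can be said of genes under 2.13 CPM there.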
